A study of Homo sapiens with 4 samples.

Results

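The genes described here encode the nuclear pore complex and the receptors that carry cargo through it, read from RNA sequencing of MDA-MB-231 cells after knockdown of the tRNA methyltransferase hTrmt13. The rows were taken from the count table by symbol, as every symbol starting with NUP and a digit, KPNA, KPNB, IPO and a digit, or XPO and a digit or T. This gave 44 of the 28930 symbols in the table. They comprise 20 nucleoporin genes, 21 transport receptor genes, and 3 further rows, the paralogs NUP210L and NUP62CL and the antisense transcript NUP50-AS1. A total of 42 passed the filter on low counts. The paralog NUP210L, with 1 count in the 4 libraries together, and KPNA7, an importin alpha with 9 and 9 counts in the knockdown libraries and 8 and 4 in the control libraries, did not.

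MDA-MB-231 is an established human line of mesenchymal type, from a breast cancer that lacks hormone receptors. One group of 2 libraries came from cells given an siRNA against hTrmt13 (gene TRMT13), here called knockdown, and the other group of 2 from cells given a control siRNA. Both groups are the same cell line, and the sources used here give neither the siRNA sequence nor its dose or the time after transfection. The enzyme methylates the ribose of tRNA, and the libraries allow transcript levels to be compared after it has been reduced.

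Nuclear pores are assembled from many copies of each nucleoporin, arranged as an outer ring on each face of the envelope, an inner ring, a central channel, filaments towards the cytoplasm and a basket towards the nucleus. Nucleoporins with phenylalanine-glycine (FG) repeats fill the channel, and importins and exportins pass by binding these repeats. The small GTPase Ran gives direction to the traffic: importins release cargo when they bind its GTP form in the nucleus, while exportins bind cargo together with it. Mature tRNA leaves the nucleus largely through XPOT, which links this machinery to the substrate of hTrmt13.

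Total counts ran from 9777267 to 13098985 per library, and the 44 rows held 0.479% and 0.604% of them in knockdown and 0.462% and 0.651% in control. TRMT13 had 3.52 and 4.79 CPM (counts scaled to library size, with TMM factors) in knockdown and 14.9 and 18.9 CPM in control, a fall of 4.05-fold (−2.02 on the log2 scale, SE 0.34, edgeR adjusted p = 0.0399). Adjusted p-values here are Benjamini-Hochberg values over all genes from edgeR's quasi-likelihood fit. Of 4 markers of the line, VIM averaged 1824 CPM in knockdown and 1795 CPM in control with overlapping groups. The other 3 (75%) were lower in both knockdown libraries than in both control libraries, against 26.8% of all tested genes. S100A4 fell to 11.1 and 9.14 CPM in knockdown, against 35.9 and 25.2 CPM in control (edgeR adjusted p = 0.0476), a call that ended without knockdown replicate 2 (−1.45 on the log2 scale, edgeR adjusted p = 0.061), without control replicate 1 (−1.31, edgeR adjusted p = 0.0749) and with a mean of at least 5 CPM (−1.60, edgeR adjusted p = 0.0537). CD44 averaged 158.0 CPM in knockdown and 272.8 CPM in control (edgeR adjusted p = 0.079), and AXL 605.0 CPM in knockdown and 998.1 CPM in control (edgeR adjusted p = 0.107). Of 7 epithelial or luminal markers, ESR1 and PGR had 0 counts and CDH1 1 count in each group. KRT18 averaged 321.1 CPM in knockdown and 431.4 CPM in control, ERBB2 144.5 CPM in knockdown and 118.0 CPM in control, GATA3 4.52 CPM in knockdown and 8.598 CPM in control, and EPCAM 2.52 CPM in knockdown and 4.95 CPM in control, and none of these 4 passed. KRT18, GATA3 and EPCAM (75% of these 4) were also lower in both knockdown libraries than in both control libraries, while the groups of ERBB2 overlapped. Of the blood markers, CD3E and HBB were at 0 in every library and PTPRC was at 0.90 CPM or less. The 3 endothelial and fibroblast markers in the table summed to 13.1 and 13.2 CPM in knockdown and 32.2 and 28.2 CPM in control, with CDH5 at 0 and 2 counts in knockdown and 63 and 49 in control. The part of these marker differences in the results for the pore genes was not tested. Since whole cultures were sequenced, fewer cells in a given state and less RNA per cell cannot be told apart.

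In the edgeR fit of knockdown against control, without a block for replicate number, none of the pore and transport genes passed. At a Benjamini-Hochberg adjusted p under 0.05, edgeR called 0 of the 42 tested, against 2.99% of the 13022 genes tested in all (389 genes). In each direction the members' count was also 0, against 1.03% of all tested genes higher and 1.96% lower. The DESeq2 Wald test called 1 of the 42, NUP58, against 8.67% of all tested genes. The likelihood ratio test of edgeR called 2, NUP58 and NUP62CL, against 12.1%. With the replicate number as a block, edgeR called 15 of the 42 (35.7%), against 40.1% of all tested genes. The labels do not say what that number marks. In the fit without a block, 4 of 42 (9.52%) had an unadjusted p under 0.05, against 24.0% of all tested genes. Both knockdown libraries lay above both control libraries for 7 of the 42 (16.7%, against 27.5% of all tested genes) and below them for 9 (21.4%, against 26.8%). Together these 16 were 38.1% of the members, against 54.3% of all tested genes, and in the other 26 the groups overlapped. A log2 fold change smaller than 0.5 in either direction was found for 31 of the 42. The smallest fold among the 389 called genes was 2.06. No gene with a smaller difference was called in the fit without a block, at this depth and number of libraries. A p that misses the threshold does not show that levels were equal.

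The medians of the nucleoporins and of the receptors lay on different sides of 0. Of the 20 nucleoporin genes that the symbol rule reaches, 16 lay below 0 on the log2 scale. The median over the 20 was −0.17, against 0.0053 over all tested genes, of which 50.4% were positive. The 12 other pore components, which the rule does not reach, had a median of 0.043, with 6 positive and 6 negative values. Of the 20 receptor genes tested, 14 had a positive value, with a median of 0.19. Each of the members' medians moved with single libraries. For the nucleoporins it was −0.064 without knockdown replicate 1, −0.33 without knockdown replicate 2, −0.39 without control replicate 1 and −0.025 without control replicate 2. For the receptors it was 0.29, −0.011, 0.035 and 0.41 in the same order of libraries left out. These are descriptions of the chosen genes, with no test of the difference between them.

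**Figure D1:**
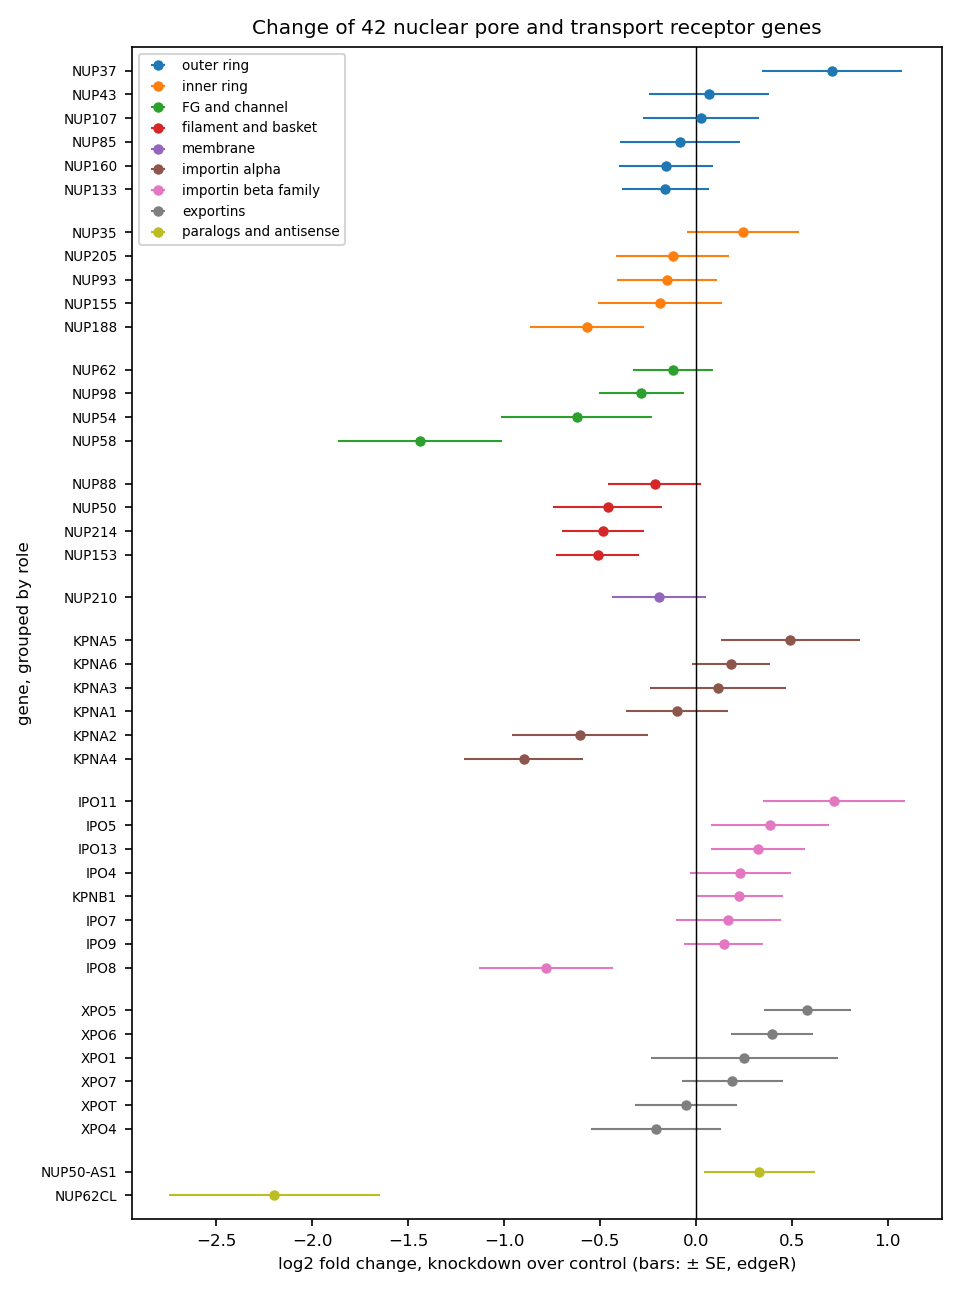
Log2 fold change of knockdown over control for each of the 42 tested genes, grouped by role (colours), with bars of ± SE from the edgeR fit. The 4 FG and channel genes and the 4 filament and basket genes all stand left of 0, from −1.44 for NUP58 to −0.12 for NUP62. Of the 8 importin beta family genes, 7 stand right of 0, the exception being IPO8 at −0.78. Among all tested genes 50.4% were positive. Of the genes in these groups, NUP88, IPO4 and IPO7 changed sign when a single library was left out.

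The channel genes held the nucleoporin with the smallest p, NUP58. NUP58 encodes an FG nucleoporin that forms the channel complex with NUP62 and NUP54. It stood at 25.3 and 60.4 CPM in knockdown and at 93.3 and 139.2 CPM in control. Both knockdown libraries were below both control libraries, and each group's libraries also lay well apart from each other. The fitted log2 fold change was −1.44 (SE 0.43), 2.71-fold lower in knockdown, with an edgeR adjusted p of 0.114, so the difference did not pass. It passed without knockdown replicate 2 (−2.20, edgeR adjusted p = 0.0121) and without control replicate 1 (−1.69, edgeR adjusted p = 0.00256), and stood at −0.94 without knockdown replicate 1 and −1.12 without control replicate 2. NUP54, the partner that bridges NUP58 and NUP62, had 13.1 and 24.6 CPM in knockdown and 21.9 and 36.1 CPM in control. Its groups overlapped (log2 fold change −0.62, SE 0.39, edgeR adjusted p = 0.383).

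NUP62, the third member of the channel complex, had 115.9 and 101.04 CPM in knockdown and 114.9 and 120.4 CPM in control (log2 fold change −0.12, SE 0.21). Its exons overlap those of ATF5, a stress-responsive transcription factor gene on the opposite strand, in the GENCODE annotation. ATF5 fell to 9.70 and 9.51 CPM in knockdown, against 32.7 and 29.4 CPM in control (edgeR adjusted p = 0.0357). Without a stated strand setting, reads of the overlap cannot be assigned to either gene. NUP98, whose precursor protein is cut into the FG nucleoporin Nup98 and the outer ring protein Nup96, had 118.4 and 143.7 CPM in knockdown and 146.9 and 172.5 CPM in control. The knockdown libraries were the lower ones, and the log2 fold change was −0.28 (SE 0.22, edgeR adjusted p = 0.48).

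The promoter window of NUP58 (RefSeq, GRCh38.p14, chr13:25301375-25301674, plus strand, from 250 bases before to 50 bases after the annotated start) is shown because NUP58 had the smallest p among the nucleoporins. Capitals mark a match to the ETS motif core CCGGAAG, which lies on the reverse strand.
NUP58: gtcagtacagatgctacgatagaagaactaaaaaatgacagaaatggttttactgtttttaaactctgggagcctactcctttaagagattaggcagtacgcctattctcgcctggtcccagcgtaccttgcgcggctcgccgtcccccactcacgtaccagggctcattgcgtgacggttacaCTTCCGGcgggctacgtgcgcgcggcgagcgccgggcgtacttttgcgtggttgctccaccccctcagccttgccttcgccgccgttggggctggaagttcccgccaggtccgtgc
The core, read on both strands, was present in 12 of the 36 windows found for tested members (33.3%), among them NUP54 and NUP214 as well as XPOT and XPO6, and in 19.3% of 9686 windows of all tested genes. NUP153 and XPO5 had none in their windows. Genes on both sides of 0 therefore hold the core. YY1-type AAGATGGC was found in 13.9% of tested members and 5.46% of tested genes, and E2F-type TTTCCCGC or TTTGGCGC in 2.78% and 3.80%. The shares describe letters in the windows only.

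At the cytoplasmic and nuclear faces of the pore, the 4 filament and basket genes that the symbol rule reaches had lower means in knockdown. None of them passed. NUP153 anchors the nuclear basket. It stood at 100.99 and 120.2 CPM in knockdown and 147.4 and 168.2 CPM in control, with no overlap (log2 fold change −0.51, SE 0.22, edgeR adjusted p = 0.212). NUP214, the large FG nucleoporin of the cytoplasmic filaments, had 73.1 and 70.7 CPM in knockdown and 92.9 and 108.1 CPM in control, again with no overlap (−0.48, SE 0.21, edgeR adjusted p = 0.23). NUP50, a mobile partner of NUP153 that helps release importin alpha cargo, had 82.8 and 133.1 CPM in knockdown and 133.3 and 163.5 CPM in control, so its groups met without overlapping (−0.46, SE 0.28). NUP88, which binds NUP214, had a log2 fold change of −0.22 (SE 0.24) with overlapping groups. Summed over these 4 genes, the level was 346.0 and 429.7 CPM in knockdown and 470.5 and 569.1 CPM in control, and for the 4 channel genes it was 272.7 and 329.7 CPM against 377.0 and 468.2 CPM.

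The 6 outer ring genes that the symbol rule reaches belong to the Y-shaped complex that coats the membrane. Their median log2 fold change was −0.028, and the groups overlapped in all 6. SEC13 and SEH1L, outer ring components outside the rule, are given with the other pore components. NUP37 had the largest value of these 6, with 20.7 and 33.9 CPM in knockdown and 12.6 and 20.7 CPM in control (0.71, SE 0.37, edgeR adjusted p = 0.292). Its lower knockdown library and its higher control library were level at 20.7 CPM. NUP133, NUP160, NUP85, NUP43 and NUP107 lay between −0.16 and 0.069, and NUP133 had 68.5 and 83.7 CPM in knockdown and 79.2 and 90.7 CPM in control. NUP37 starts head to head with PARPBP, a DNA repair gene, within 1000 bases in the GENCODE annotation. PARPBP had 3.71 and 13.03 CPM in knockdown and 6.99 and 20.2 CPM in control, on the other side of 0 (log2 fold change −0.70, SE 0.68).

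Among the 5 inner ring genes the median was −0.15. NUP188, a large scaffold protein, had 92.0 and 103.1 CPM in knockdown and 105.5 and 183.6 CPM in control. Both knockdown libraries were below both control libraries. The log2 fold change was −0.57 (SE 0.30, edgeR adjusted p = 0.299), and −0.11 without control replicate 2. NUP35, which links the ring to the membrane, had 14.6 and 18.7 CPM in knockdown and 12.5 and 15.5 CPM in control (0.25, SE 0.29), with overlapping groups. NUP155, NUP93 and NUP205 lay between −0.19 and −0.12. NUP210, the membrane-spanning nucleoporin, had 600.6 and 424.5 CPM in knockdown and 534.9 and 634.9 CPM in control, so the knockdown libraries lay on either side of a control library (−0.19, SE 0.24).

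Other pore components were listed separately because the symbol rule does not reach them. Of these, 12 were in the table and 1 passed, against 2.99% of all tested genes. This was GLE1, an mRNA export factor of the cytoplasmic face that activates the helicase DDX19. GLE1 rose to 64.6 and 68.5 CPM in knockdown, against 25.1 and 31.1 CPM in control, 2.37-fold (log2 fold change 1.24, SE 0.24, edgeR adjusted p = 0.0496). The call sits at the threshold and ended without control replicate 1 (1.10, edgeR adjusted p = 0.162) and without knockdown replicate 2 (1.20, edgeR adjusted p = 0.0515). SEC13, an outer ring component shared with COPII vesicle coats, had 240.2 and 232.2 CPM in knockdown and 117.3 and 152.7 CPM in control (0.81, SE 0.22, edgeR adjusted p = 0.0986). SEH1L, also of the outer ring, had 70.6 and 90.03 CPM in knockdown and 41.4 and 66.2 CPM in control, with no overlap. Its log2 fold change was 0.58 (SE 0.30, edgeR adjusted p = 0.289). POM121C, a copy of the membrane nucleoporin POM121 that can share reads with it, had 172.6 and 119.8 CPM in knockdown and 82.0 and 69.5 CPM in control (0.95, SE 0.26, edgeR adjusted p = 0.0935). POM121 itself had 411.2 and 194.4 CPM in knockdown and 191.2 and 131.8 CPM in control (0.91, SE 0.38, edgeR adjusted p = 0.209). With reads that can be shared, POM121 and POM121C cannot be taken as separate observations. POM121C passed with the DESeq2 Wald test (adjusted p = 0.0361), with edgeR's likelihood ratio test (adjusted p = 0.0214), with no filter on low counts (edgeR adjusted p = 0.00927) and without knockdown replicate 2 (1.19, edgeR adjusted p = 0.0395). Over the 12 genes the median log2 fold change was 0.043, with 6 positive and 6 negative values.

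Importin alpha adaptors bind classical nuclear localization signals and are carried by importin beta. Of the 6 tested, 3 were positive and 3 negative. KPNA4, an adaptor used by NF-kappaB subunits, had the smallest p of them, with 50.3 and 79.2 CPM in knockdown and 97.9 and 143.6 CPM in control. The groups did not overlap, and the log2 fold change was −0.90 (SE 0.31, edgeR adjusted p = 0.148). KPNA2, an adaptor known for high levels in dividing cells, had 140.9 and 226.6 CPM in knockdown and 199.4 and 359.5 CPM in control. Its groups overlapped, at −0.60 (SE 0.35, edgeR adjusted p = 0.35), and the value was −0.99 without knockdown replicate 2 and −0.12 when control replicate 2 was left out. KPNA5 stood at 0.49, KPNA6 at 0.18, KPNA3 at 0.12 and KPNA1 at −0.099.

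The importin beta family carries cargo directly or through the adaptors. KPNB1, the carrier of classical import, had 527.8 and 644.4 CPM in knockdown and 442.2 and 560.0 CPM in control (log2 fold change 0.23, SE 0.23, edgeR adjusted p = 0.588), and its groups overlapped. IPO11, an importin for ubiquitin-conjugating enzymes, had 30.0 and 41.3 CPM in knockdown and 14.6 and 28.5 CPM in control. Both knockdown libraries were above both control libraries (0.72, SE 0.37, edgeR adjusted p = 0.289), by a narrow margin at the nearest libraries. Its head-to-head neighbour DIMT1, an rRNA methyltransferase gene, stood at −0.093 (SE 0.36). IPO8, which imports SMADs and Argonaute proteins, lay on the other side of 0, with 28.4 and 50.3 CPM in knockdown and 54.4 and 81.1 CPM in control (−0.78, SE 0.35, edgeR adjusted p = 0.233). Its paralog IPO7, an importer of ribosomal proteins among other cargo, had 272.5 and 393.2 CPM in knockdown and 247.9 and 344.1 CPM in control (0.17, SE 0.27), so this closely related pair had values of opposite sign, with no test of the difference. IPO5, IPO13, IPO4 and IPO9 lay between 0.14 and 0.39.

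XPOT, the tRNA exporter, had close group means. It stood at 145.5 and 215.9 CPM in knockdown and at 167.5 and 207.1 CPM in control, so the control libraries lay between the knockdown libraries. The log2 fold change was −0.052 (SE 0.26, edgeR adjusted p = 0.931), and its 95% interval from the same fit ran from −0.68 to 0.58. A change of the TRMT13 transcript's own size lies outside that interval, as do smaller changes beyond its limits. Only changes between −0.68 and 0.58 lie inside it. The XPOT value ranged from −0.36 to 0.21 when single libraries were left out.

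XPO5, which exports precursor microRNAs and also binds tRNA, was the exportin with the smallest p. It had 149.6 and 159.2 CPM in knockdown and 89.1 and 117.2 CPM in control, with no overlap. The log2 fold change was 0.58 (SE 0.23) and did not pass (edgeR adjusted p = 0.186). It stayed between 0.40 and 0.79 when single libraries were left out. Its head-to-head neighbour POLH, a DNA polymerase gene, stood at 0.021 (SE 0.30). Its exons overlap those of POLR1C, an RNA polymerase subunit gene on the opposite strand, which had 49.1 and 42.2 CPM in knockdown and 34.6 and 38.8 CPM in control (0.32, SE 0.24), so part of the XPO5 reads cannot be assigned with certainty. Exons of NUP88, NUP188, IPO4 and IPO11 also overlap a neighbour (RPAIN, SH3GLB2, REC8 and LRRC70), and the same limit holds for them. XPO6, the exporter of actin with profilin, had 199.7 and 217.3 CPM in knockdown and 142.6 and 173.9 CPM in control, also with no overlap (0.40, SE 0.22, edgeR adjusted p = 0.314).

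XPO1, the exporter of proteins with leucine-rich signals, had 170.9 and 379.9 CPM in knockdown and 139.2 and 323.0 CPM in control (0.25, SE 0.49, edgeR adjusted p = 0.794). The libraries numbered 2 were more than 2-fold above those numbered 1 in each group, a wider gap than that between the groups. XPO7 stood at 0.19 and XPO4, an exporter of the translation factor eIF5A, at −0.21.

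The promoter windows of XPO5 (RefSeq, GRCh38.p14, chr6:43575989-43576288, minus strand) and XPOT (chr12:64404142-64404441, plus strand) are shown because XPO5 had the smallest p of the exportins and XPOT is the exporter of tRNA. The difference between the pair was not tested. Capitals mark the ETS core CCGGAAG and the SP1-type box GGGCGG on either strand.
XPO5: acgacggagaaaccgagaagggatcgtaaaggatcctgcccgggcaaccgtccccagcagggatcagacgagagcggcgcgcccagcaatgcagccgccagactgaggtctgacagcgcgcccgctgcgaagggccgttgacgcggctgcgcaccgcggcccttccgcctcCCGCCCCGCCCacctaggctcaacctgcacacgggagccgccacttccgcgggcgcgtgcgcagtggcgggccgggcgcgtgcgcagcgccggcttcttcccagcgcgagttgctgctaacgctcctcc
XPOT: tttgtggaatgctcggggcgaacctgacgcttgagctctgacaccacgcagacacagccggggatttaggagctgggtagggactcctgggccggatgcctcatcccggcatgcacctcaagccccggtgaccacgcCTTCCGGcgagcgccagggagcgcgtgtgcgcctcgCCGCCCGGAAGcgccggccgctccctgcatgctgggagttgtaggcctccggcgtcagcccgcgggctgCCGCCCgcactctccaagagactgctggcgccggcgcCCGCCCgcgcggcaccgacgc
The XPO5 window holds a pair of overlapping SP1-type boxes and no ETS core. The XPOT window holds ETS cores on both strands and several SP1-type boxes, and its longest run of capitals is an SP1-type box that overlaps an ETS core. SP1-type boxes were found in 52.8% of tested members and 70.5% of tested genes. A match is a description of the letters and not evidence of binding.

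**Figure D2:**
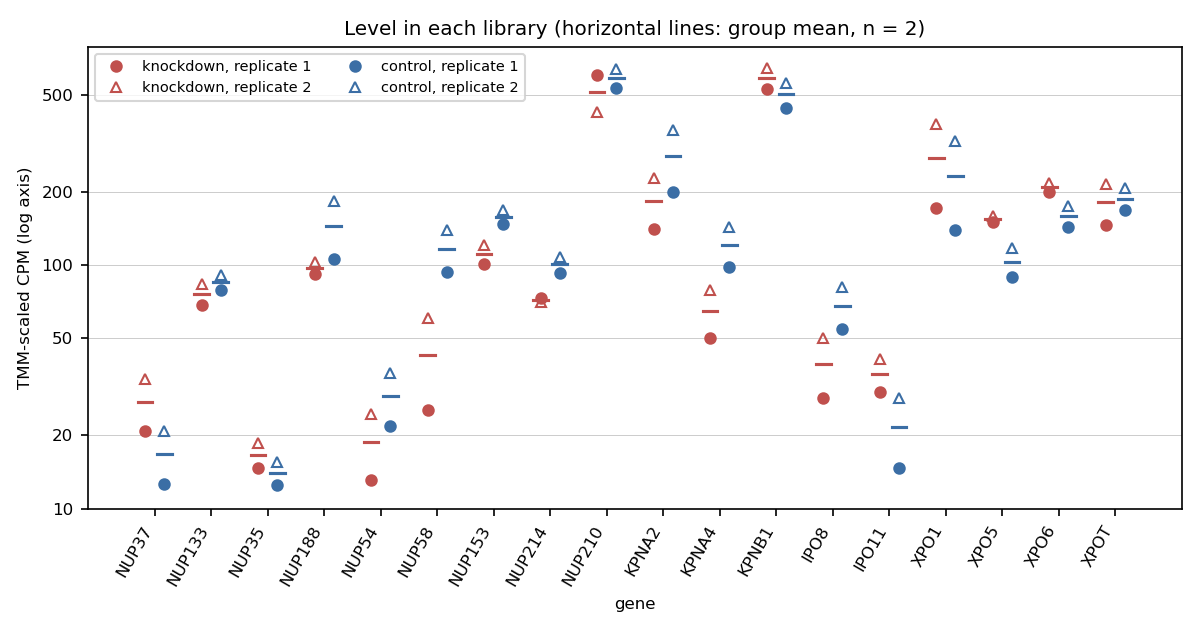
TMM-scaled CPM on a log axis for a selection of the genes described library by library, with knockdown (red) left of control (blue). Replicate 1 is drawn as filled circles and replicate 2 as open triangles, with a line at each group mean (n = 2). NUP58, NUP188, NUP153, NUP214, KPNA4 and IPO8 have both red symbols below both blue ones, and IPO11, XPO5 and XPO6 have them above. Among all tested genes the shares were 26.8% below and 27.5% above. The symbols of XPOT and XPO1 interleave.

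The 3 further rows were treated apart. NUP62CL, an X-linked relative of NUP62, had the smallest p of all 42, on 6 and 9 counts in knockdown and 18 and 50 counts in control (0.57 and 0.67 CPM against 1.88 and 3.87 CPM). Its log2 fold change was −2.20 (SE 0.55, edgeR adjusted p = 0.0786), and it passed without control replicate 1 (−2.60, edgeR adjusted p = 0.0105). NUP50-AS1 had 13.6 and 11.8 CPM in knockdown and 9.92 and 10.3 CPM in control (0.33, SE 0.29), and whether it shares exon sequence with NUP50 in the authors' annotation was not tested.

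For most of these genes the libraries of a group lay further apart than the group means. Of the 42, 36 had a higher CPM in the library numbered 2 in both groups, 1 was lower in both (IPO13), and 5 went opposite ways. The median log2 ratio of library 2 over library 1 was 0.37 in knockdown and 0.45 in control. Across the 42 genes these ratios had a Pearson r of 0.549, given as a description, since the genes share the same libraries. For 24 genes the ratio in each group exceeded the log2 fold change of knockdown over control in size. XPO1 had the widest gap in control, at 1.15 in knockdown and 1.21 in control, and NUP58 the widest in knockdown, at 1.26 against 0.58 in control.

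Cell division genes were also higher in the libraries numbered 2. Summed over 11 mitosis genes, the level was 424.5 and 1336 CPM in knockdown replicates 1 and 2 and 770.25 and 1929 CPM in control replicates 1 and 2. Summed over 14 DNA replication genes, it was 429.3 and 725.6 CPM in knockdown and 765.0 and 1465 CPM in control, and all 14 log2 fold changes were negative, at a median of −1.07. By edgeR 0 of the 14 passed (6 at an unadjusted p under 0.05, or 42.9%), and 0 of the mitosis genes (0 at an unadjusted p under 0.05). Among all tested genes 2.99% passed and 24.0% had an unadjusted p under 0.05. MCM7, a helicase subunit, stood at −1.12 (SE 0.29, edgeR adjusted p = 0.0842) and PLK1, a mitotic kinase, at −1.04 (SE 0.57, edgeR adjusted p = 0.322). Their part in the values of the nucleoporins and of KPNA2 was not tested.

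**Figure D3:**
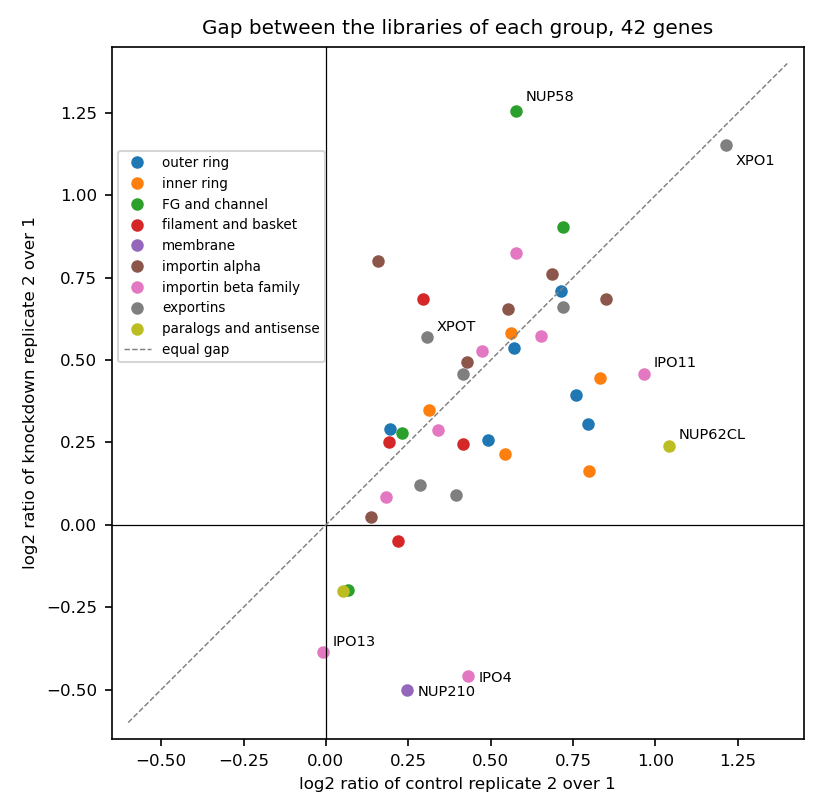
Log2 ratio of replicate 2 over replicate 1 in knockdown (vertical axis) against the same ratio in control (horizontal axis) for the 42 genes, coloured by role, with a dashed line where both are equal. Most points lie in the upper right, with XPO1 at 1.15 and 1.21, and NUP210 and IPO4 are among the 5 with opposite signs.

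In the Ran system 0 of 8 tested genes passed (1 at an unadjusted p under 0.05, or 12.5%), with 5 positive values and a median of 0.24. The shares over all tested genes were 2.99% and 24.0%. RAN itself had 389.2 and 530.0 CPM in knockdown and 373.5 and 579.2 CPM in control (log2 fold change −0.052, SE 0.28), and RCC1, its nuclear exchange factor, had 55.7 and 64.6 CPM in knockdown and 68.1 and 79.9 CPM in control (−0.30, SE 0.23, edgeR adjusted p = 0.47). CSE1L, which returns importin alpha to the cytoplasm, had 133.7 and 344.8 CPM in knockdown and 91.5 and 246.6 CPM in control. Like XPO1 it lay over 2-fold higher in the libraries numbered 2, and its group difference of 0.50 on the log2 scale (SE 0.56, edgeR adjusted p = 0.633) was −0.34 without knockdown replicate 2 and −0.035 without control replicate 1. It passed without knockdown replicate 1 (1.04, edgeR adjusted p = 0.0241) and without control replicate 2 (1.39, edgeR adjusted p = 0.0168).

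Of 9 other transport receptors tested (NUTF2 is also counted in the Ran system), 8 were positive, with a median of 0.37. None passed (2 at an unadjusted p under 0.05, or 22.2%). For this and the following lists, the shares over all tested genes were 2.99% passed and 24.0% at an unadjusted p under 0.05. SNUPN, the import adaptor of spliceosomal snRNPs, had 19.0 and 20.7 CPM in knockdown and 9.81 and 10.3 CPM in control (0.98, SE 0.27, edgeR adjusted p = 0.0971), and it passed with edgeR's likelihood ratio test (adjusted p = 0.0423). Among 19 mRNA export genes 0 passed (3 at an unadjusted p under 0.05, or 15.8%), with a median of 0.079. THOC5 of the THO complex stood at 0.72 (SE 0.22, edgeR adjusted p = 0.121) and the export adaptor POLDIP3 at −0.66 (SE 0.20, edgeR adjusted p = 0.118). Among 15 lamina and envelope genes 0 passed (5 at an unadjusted p under 0.05, or 33.3%), with a median of −0.077. SYNE1, which encodes the outer membrane protein nesprin-1, had 282.6 and 232.0 CPM in knockdown and 125.9 and 112.7 CPM in control (1.11, SE 0.22, edgeR adjusted p = 0.0517), and it passed under several alternatives, such as the DESeq2 test. The 5 genes on the tRNA side (processing, ligation, end repair and delivery to the ribosome) lay between −0.0017 and 0.26, and 0 passed (0 at an unadjusted p under 0.05).

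To compare levels between genes, CPM was divided by the exon length of the coding transcripts in GENCODE release 29. On this scale KPNA2 (66.1 ± 21.8 CPM per kb in knockdown and 100.6 ± 40.8 in control), NUP210 (71.3 ± 17.3 and 81.3 ± 9.83) and KPNB1 (87.7 ± 12.3 and 75.0 ± 12.5) led in both groups (SD, n = 2 each), and these levels did not differ from each other beyond their spread. NUP160 was the highest scaffold gene, at 46.8 ± 5.88 CPM per kb in knockdown and 52.2 ± 12.4 in control. XPOT stood at 28.2 ± 7.77 CPM per kb in knockdown and 29.2 ± 4.36 in control, at rank 12 in knockdown and rank 10 in control among the coding genes. XPO5 stood at 28.8 ± 1.27 CPM per kb in knockdown and 19.2 ± 3.70 in control, so in knockdown it did not differ from XPOT beyond the spread. NUP58 had 4.70 ± 2.72 CPM per kb in knockdown and 12.8 ± 3.56 in control, next to its complex partner NUP54 at 7.96 ± 3.42 and 12.3 ± 4.24, and below NUP62 at 21.2 ± 2.06 and 23.0 ± 0.76. KPNA5 and NUP62CL were lowest of the tested coding genes, both under 2 CPM per kb. The lengths come from another annotation than the one behind the counts, so the order of close neighbours is not firm.

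**Figure D4:**
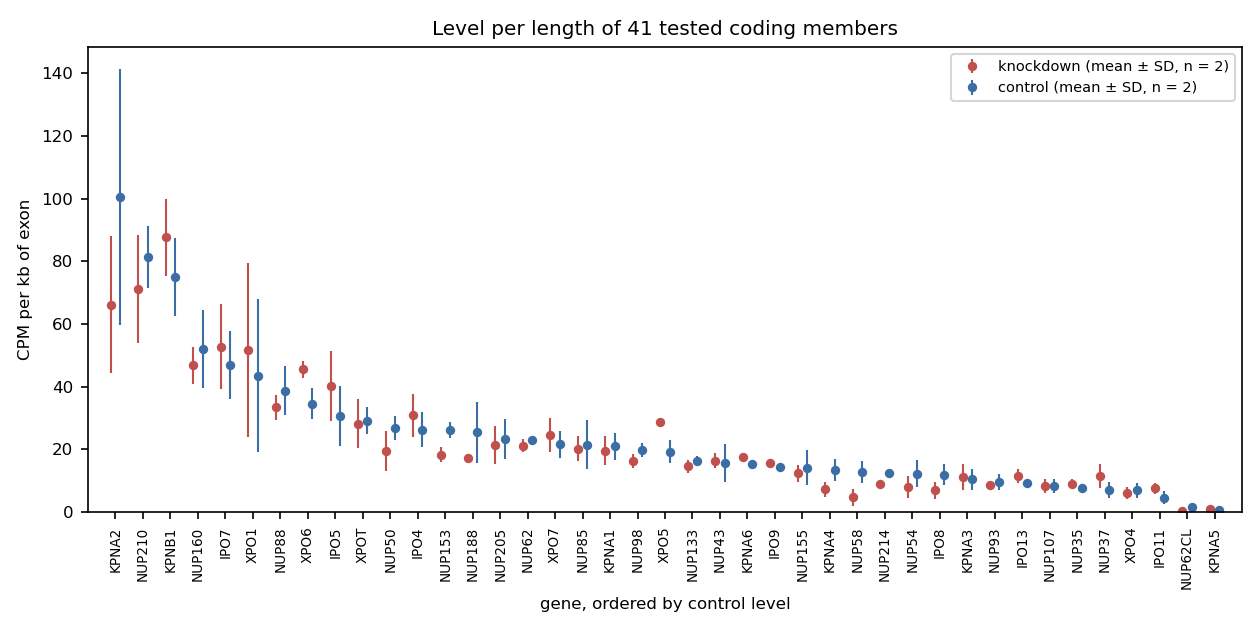
Mean CPM per kb of exon ± SD (n = 2) for the 41 tested coding genes, knockdown (red) left of control (blue), ordered by the control level. KPNA2, NUP210 and KPNB1 stand above the rest, and error bars of neighbouring genes overlap along most of the axis.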

How the data were processed

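Gene-level RNA-seq counts of 4 MDA-MB-231 libraries were used, 2 from knockdown and 2 from control cells. The authors deposited raw read counts per gene symbol. Trizol extraction and an Illumina TruSeq RNA kit were used, per the labels' protocols. Per the submitters' processing notes, cutadapt, STAR 2.5.2b, HTSeq 0.6.1 and limma were named with the builds hg19 and GRCh37. The sources used here give no annotation or strand setting. Nothing in the labels says that replicates came from separate cultures, so p-values measure only how far these samples vary, perhaps for technical reasons. Replicates of a group were not the same library counted again: chi-square over degrees of freedom was 44.5 in knockdown and 40.4 in control.

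Counts were tested over the whole table with edgeR 4.0.16 in R 4.3.3 (TMM, filterByExpr with a minimum count of 10 and a minimum total of 15, quasi-likelihood test, no covariate), and p-values were adjusted over all 13022 genes tested. On simulated counts with dispersions taken from these libraries, the edgeR script recovered 13 of 100 2-fold changes and 85 of 100 4-fold changes. It also called 23 unchanged genes. The simulated libraries were drawn independently, while deviations in equal-numbered real libraries correlated (r = 0.639 across genes). These counts may therefore not hold for the real libraries. The genes described and the lists of related genes were chosen with earlier results of these data known. Values per library were given for XPOT, XPO1, XPO5, KPNB1 and KPNA2, and for at most 2 genes per role with the smallest p, and others were added after their values were seen. From the related lists, genes past the threshold, RAN, RCC1, CSE1L, and otherwise at most 2 per list were named. SEH1L and POM121 were added after their values were seen. In the marker lists the genes past the threshold were S100A4 (log2 fold change −1.59) and CDH5, both lower. The fitted value of CDH5 (−5.78) depends on the prior count, since a knockdown library is at 0. Of 4 tested epithelial or luminal markers 0 passed (1 at an unadjusted p under 0.05, edgeR, or 25%, against 24.0% of all tested genes). SE values and the 95% interval come from the edgeR fit. Exon lengths and neighbours came from GENCODE release 29, of another build (GRCh38), and promoter windows from RefSeq (GRCh38.p14), found for 37 of the 44 symbols. Motifs were searched on both strands in 1 window per gene. Alternatives were DESeq2 1.42.0 (its size factors and its Wald test), other scalings, filters and tests, the replicate number as a block, and leaving out each library.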

Additional observations from a re-analysis of the deposited data

How the results depend on the processing

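The count of genes called in all (389) was 1949 with no filter on low counts, 1129 with the DESeq2 Wald test, 1571 with edgeR's likelihood ratio test and 678 to 935 without single libraries. Of the nuclear pore and transport genes, 0 were called with all libraries, 3 with no filter (KPNA4, NUP58 and NUP62CL), 1 with DESeq2 (NUP58), 2 with the likelihood ratio test (NUP58 and NUP62CL) and 0 to 2 without single libraries. Other scalings and a mean of at least 5 CPM gave 0. Nothing in the labels says what a replicate number marks, so the replicate block was an alternative: with it 5227 genes (40.1%) were called, among them 15 of the 42 (35.7%), 5 higher (IPO11, IPO5, NUP37, XPO5, XPO6) and 10 lower (IPO8, KPNA2, KPNA4, NUP153, NUP188, NUP214, NUP50, NUP54, NUP58, NUP62CL). Deviations from the group means in equal-numbered libraries correlated with r = 0.639 across genes. Without single libraries the median log2 fold change ran from −0.29 to 0.22 for all members, −0.39 to −0.025 for nucleoporins and −0.011 to 0.41 for receptors. The sign of 17 of the 42 members changed when a library was left out, and of 0 under the other alternatives; the other 25 kept theirs in all. The ranges were −0.0063 to 0.46 for IPO4, −0.12 to 0.43 for IPO7, −0.37 to 0.14 for KPNA1, −0.32 to 0.50 for KPNA3, −0.27 to 0.34 for NUP107, −0.54 to 0.29 for NUP155, −0.38 to 0.11 for NUP160, −0.44 to 0.19 for NUP205, −0.45 to 0.039 for NUP210, −0.27 to 0.52 for NUP43, −0.40 to 0.35 for NUP85, −0.40 to 0.0083 for NUP88, −0.39 to 0.15 for NUP93, −0.44 to 0.99 for XPO1, −0.58 to 0.20 for XPO4, −0.056 to 0.41 for XPO7 and −0.36 to 0.21 for XPOT, and, outside the members, −0.33 to 0.30 for RAN and −0.34 to 1.39 for CSE1L. The GLE1 call also ended with library size alone (1.26, edgeR adjusted p = 0.0537) and a mean of at least 5 CPM (1.24, edgeR adjusted p = 0.0537). The cause of these changes was not tested. With 2 libraries per group, 1 left out leaves a lone library that is assumed to vary like the other group.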
